A study of Mus musculus with 16 samples.

Results

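The genes described here encode the proteins of the cytosolic ribosome, measured by RNA-seq in regulatory and conventional CD4+ T cells of mice given venetoclax or vehicle. Members were chosen by gene symbol alone: Rpsa and every Rps, Rpl or Rplp symbol with a number, with an optional a, x or l at its end, present in both deposited tables and without pseudogene symbols. This took in 70 genes of the 10774 that both tables hold, 30 of the small (40S) and 40 of the large (60S) subunit. All 70 stood in both tables, and 68 of them had a mean of at least 50 normalized counts in each table, the exceptions being Rpl39 and Rpl32l. Rpl6l is annotated as a pseudogene in RefSeq. Rplp1, Rpl29, Rpl36a and Rps27 were not analysed here.

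The mice were of the FOXP3-IRES-GFP reporter strain (B6.Cg-Foxp3tm2Tch/J, genotype given as WT), in which cells that express Foxp3 also make GFP, and both arms carried this allele. They received venetoclax, a drug that blocks the anti-apoptotic protein BCL-2, at 50 mg/kg, or vehicle, for 14 days, and their age and sex are not given in the labels. CD4+ FOXP3+ regulatory cells (Treg) and CD4+ FOXP3- conventional cells (Tcon) came from spleen and lymph node together, with 4 libraries in each of the groups Treg venetoclax, Treg vehicle, Tcon venetoclax and Tcon vehicle, 16 in all. The Treg and Tcon libraries share their replicate codes (ABT1 to ABT4 with venetoclax, VEH1 to VEH4 with vehicle), and the labels number them as biological replicates without saying whether animals were pooled, so that p-values measure the spread between these libraries.

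Each ribosome holds 1 copy of nearly every ribosomal protein, so cells make these proteins in matched amounts. Their messages begin with a 5′ terminal oligopyrimidine (TOP) tract, an unbroken run of C and T bases at the transcription start, through which the kinase complex mTORC1 and the RNA-binding protein LARP1 set how much of them is translated and how stable they are. The genes are short, are spread over many chromosomes, and are among the most highly expressed of any cell. In T cells, activation and growth raise ribosome production.

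Runs of C and T bases near the annotated start were more frequent among members than among all genes. RefSeq promoters (GRCm38.p6) were at hand for 54 members and 8942 genes of the Treg table. A run of at least 8 C or T bases on the transcribed strand within 30 bases of the start was found in 29 of the 54 members (53.7%), against 20.8% of all genes with a promoter. The longest run had a median of 9 bases in members and 5 in all genes. In 15 members the run covered or touched the start itself. In 9 of the 54 the start of the promoter lay inside the gene, downstream of its outermost annotated start, and among the other 45 a run was found in 22 (48.9%), 11 of them over the start. The windows below run from 40 bases before the start through the first 20 transcribed bases, 5′ to 3′, with the longest C and T run in capitals. Base 41 of each is the first transcribed base by that annotation, and in all 8 it is the outermost start of the annotated gene. The first 5 are shown for a long run over the start (Rpl27a has the longest among the 45, and was chosen for that), and the last 3, among the members with the largest differences in Treg, for having none.
Rpl27a: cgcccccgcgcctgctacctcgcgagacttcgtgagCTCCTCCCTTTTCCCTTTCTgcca
Rpl35: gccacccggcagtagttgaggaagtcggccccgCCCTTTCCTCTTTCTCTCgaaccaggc
Rpl28: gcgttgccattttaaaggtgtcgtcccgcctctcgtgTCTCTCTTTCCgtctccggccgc
Rplp2: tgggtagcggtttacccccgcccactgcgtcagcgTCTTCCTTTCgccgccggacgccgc
Rps6: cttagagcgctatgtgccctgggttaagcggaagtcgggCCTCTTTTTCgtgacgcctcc
Rps28: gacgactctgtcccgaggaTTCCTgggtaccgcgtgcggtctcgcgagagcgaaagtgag
Rps16: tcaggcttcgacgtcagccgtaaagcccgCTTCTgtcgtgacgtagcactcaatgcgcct
Rps19: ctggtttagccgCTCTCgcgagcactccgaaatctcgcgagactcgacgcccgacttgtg
Their places in GRCm38.p6 are chr7:109519155-109519214 on the plus strand (Rpl27a), chr2:39005112-39005171 on the minus strand (Rpl35), chr7:4792925-4792984 on the plus strand (Rpl28), chr7:141447611-141447670 on the plus strand (Rplp2) and chr4:86857348-86857407 on the minus strand (Rps6). Those of the last 3 are chr17:33824543-33824602 on the minus strand (Rps28), chr7:28350649-28350708 on the plus strand (Rps16) and chr7:24884552-24884611 on the plus strand (Rps19). The run is 20 bases long in Rpl27a, 18 in Rpl35, 11 in Rpl28 and 10 in both Rplp2 and Rps6, against 5 in Rps28, Rps16 and Rps19, where it lies upstream of the start. The start is RefSeq's annotated one, and where transcription begins in these cells was not measured.

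Other motifs were searched on both strands of the 300-base promoters, which run from 250 bases before the start to 50 bases after it. CCGGAA, the core of ETS factor sites, was in 50% of members with a promoter and 29.9% of all genes, and the longer form CGGAAGT, which can overlap it, in 35.2% of members and 14.5% of all genes. AAGATGG, the core of YY1 sites, was in 14.8% of members and 7.49% of all genes, TATAAA in 11.1% of members and 6.74% of all genes, and CACGTG, the E-box that MYC and MAX bind, in 7.41% of members and 10.4% of all genes. A match is a string of letters and not a measured site.

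In Treg, messages of the ribosomal proteins were lower with venetoclax. Of the 70 members, 60 fell and none rose in limma's test over all genes of the table (adjusted p under 0.05), where 8.81% of all 11067 genes were lower and 10.7% higher. The median change of the members was -0.27 on the log2 scale, against 0.00 over all genes, and 68 of 70 had a negative sign. The falls were small and alike: the 60 called members lay between -0.37 and -0.18 on the log2 scale, that is, they fell by 11.8% to 22.6%. In 62 members all 4 venetoclax libraries lay below all 4 vehicle libraries, which held for 10.7% of all genes. A lower count can come, among other sources, from less of these messages per cell or from fewer cells rich in them, and in bulk RNA the pair cannot be told apart. The counts are scaled to each library, so more of other messages can lower them too.

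The members together took 7.45, 8.63, 8.38 and 7.82% of all normalized counts in venetoclax Treg libraries 1 to 4, against 9.76, 8.97, 10.6 and 9.13% in vehicle Treg libraries 1 to 4. The mean share was 8.07 ± 0.534% in venetoclax Treg and 9.62 ± 0.745% in vehicle Treg (SD, n = 4 each), and the groups did not overlap. In Tcon the share was 10.2, 10.4, 12.96 and 9.68% in venetoclax libraries 1 to 4, against 11.2, 10.1, 15.8 and 10.04% in vehicle libraries 1 to 4. Replicate 3 of either Tcon arm stood above the rest, and the other 3 libraries of both arms lay between 9.68% and 11.2%.

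**Figure D1:**
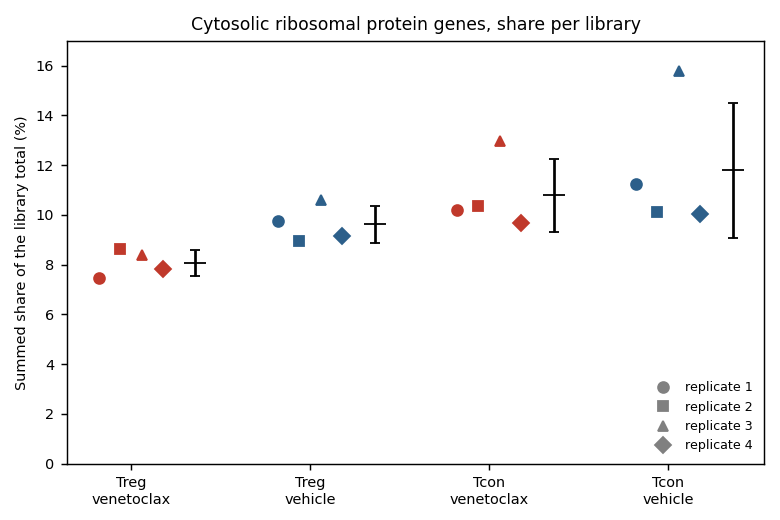
Summed normalized counts of the 70 cytosolic ribosomal protein genes as a percent of each library's total (vertical axis), for 4 libraries per group, with the mean and SD beside them and a marker shape for each replicate number. The 4 venetoclax Treg libraries (7.45% to 8.63%) lie below the 4 vehicle Treg libraries (8.97% to 10.6%), while the Tcon groups overlap and replicate 3 is highest in both Tcon arms.

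Among the proteins of the 40S subunit, 27 of 30 fell in Treg, with a median of -0.28. Rps28, a small protein near the mRNA exit that is mutated in some patients with Diamond-Blackfan anaemia, a human failure of red cell production, had the largest fall (Entrez 54127; chromosome 17, 33823036 to 33824562, GRCm38.p6). Its normalized counts (reads scaled by a size factor for each library), given here and below in the order of replicates 1 to 4, were 10026, 12031, 12258 and 10714 in venetoclax Treg, against 14305, 13158, 17300.3 and 13418 in vehicle Treg (log2 -0.37, SE 0.09, limma adjusted p = 0.0105). All 4 venetoclax libraries lay below all 4 vehicle libraries, vehicle replicate 3 was the highest and venetoclax replicate 1 the lowest. Rps16, whose tail reaches the tRNA in the P site, had 31635, 37414, 35729.6 and 32149 in venetoclax Treg, against 45113, 40314, 51251 and 40069.8 in vehicle Treg (log2 -0.36, SE 0.09, limma adjusted p = 0.0102). Its groups were also apart, with the same highest and lowest library. Rps19, the gene most often mutated in Diamond-Blackfan anaemia in humans, had 25809.6, 31339.7, 29786 and 25713 in venetoclax Treg, against 36137, 33391, 40039 and 33104 in vehicle Treg (log2 -0.34, SE 0.08, limma adjusted p = 0.0108). Here venetoclax replicates 1 and 4 were nearly equal and lowest.

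Rps24 and Rps29, 40S genes also linked to that disease in humans, fell too. Rps24 averaged 48108 ± 3482 in venetoclax Treg and 60678 ± 5079 in vehicle Treg (SD, n = 4 each; log2 -0.33, SE 0.08, limma adjusted p = 0.00958), and Rps29 averaged 21561 ± 2020.4 in venetoclax Treg and 27423 ± 3661 in vehicle Treg (log2 -0.34, SE 0.09, limma adjusted p = 0.0177). Rps21 averaged 15533 ± 1668 in venetoclax Treg and 19551 ± 1643 in vehicle Treg (log2 -0.33, SE 0.08, limma adjusted p = 0.0106). In Rps24, Rps29 and Rps21 the groups did not overlap. Rps6, the substrate of S6 kinase downstream of mTORC1, had 45575, 52672, 49679.8 and 45019 in venetoclax Treg, against 57695, 53431, 65245 and 54860.5 in vehicle Treg (log2 -0.26, SE 0.08, limma adjusted p = 0.0343). Vehicle replicate 2 was only slightly above venetoclax replicate 2, so that its groups were apart by a narrow margin.

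Rps27a, made as a fusion of ubiquitin with a 40S protein, averaged 28624 ± 2461 in venetoclax Treg and 34854 ± 3086 in vehicle Treg (log2 -0.28, SE 0.08, limma adjusted p = 0.0209). Rps14, whose loss underlies the anaemia of the 5q- syndrome in humans, averaged 37874 ± 3489 in venetoclax Treg and 45557 ± 3872 in vehicle Treg (log2 -0.27, SE 0.08, limma adjusted p = 0.0321). X-linked Rps4x averaged 28659 ± 1597 in venetoclax Treg and 34102 ± 2992 in vehicle Treg (log2 -0.25, SE 0.07, limma adjusted p = 0.0243), a value close to the median of the members. Rps13 had the smallest adjusted p of all members (log2 -0.29, SE 0.06, limma adjusted p = 0.00688), at 24335 ± 1637 in venetoclax Treg and 29769 ± 1648 in vehicle Treg.

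The 3 members of the 40S subunit that did not pass in Treg were Rpsa, Rps12 and Rps27l. Rpsa, a 40S protein also known as the precursor of the laminin receptor, which had the highest mean count of all members, had 68524, 74171, 70394 and 66048 in venetoclax Treg, against 81119, 75226, 89807 and 75905 in vehicle Treg (log2 -0.20, SE 0.08, limma adjusted p = 0.0781). Its groups were just apart, by the gap between venetoclax replicate 2 and vehicle replicate 2. Rps12 averaged 22921 ± 1780.4 in venetoclax Treg and 26038 ± 2298 in vehicle Treg (log2 -0.18, SE 0.07, limma adjusted p = 0.1), with overlap. Rps27l, a paralog of Rps27 that p53 induces, had 653, 689, 706 and 829.6 in venetoclax Treg, against 776, 636, 835 and 813 in vehicle Treg (log2 -0.09, SE 0.09, limma adjusted p = 0.557). Its libraries were mixed between groups, and venetoclax replicate 4 was its highest venetoclax library.

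In the 60S subunit 33 of 40 members fell, with a median of -0.26. Rpl35a, another gene of Diamond-Blackfan anaemia in humans, had 14535, 17395, 18034 and 15972 in venetoclax Treg, against 21428, 18409, 24200.4 and 20481 in vehicle Treg (log2 -0.36, SE 0.08, limma adjusted p = 0.0105). Its groups were apart, and vehicle replicate 2 was close to venetoclax replicate 3. Rpl35, which sits at the rim of the tunnel through which the new protein leaves, averaged 10921 ± 1175 in venetoclax Treg and 13803 ± 1673 in vehicle Treg (log2 -0.34, SE 0.09, limma adjusted p = 0.0177). Rpl13 averaged 7139 ± 779 in venetoclax Treg and 8856 ± 678 in vehicle Treg (log2 -0.31, SE 0.07, limma adjusted p = 0.0106) and was the exception among the 68 members in being highest in vehicle replicate 2, not 3.

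The stalk of the 60S subunit recruits the elongation factors. Its base protein Rplp0 had 55216, 60442, 59424 and 55268 in venetoclax Treg, against 67395, 62634, 78657 and 66262 in vehicle Treg (log2 -0.25, SE 0.08, limma adjusted p = 0.0388). Rplp2, an acidic protein of the stalk, had 22660.0, 27344, 26249 and 23368 in venetoclax Treg, against 29733, 30648, 31991 and 29777 in vehicle Treg (log2 -0.30, SE 0.07, limma adjusted p = 0.00816). Its 4 vehicle libraries were close together, and vehicle replicate 3 stood out less than in other members.

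Rpl5 and Rpl11 form a particle with 5S rRNA, which, when free of ribosomes, binds MDM2 and so raises p53. Rpl5 had 54844, 60408, 58132 and 53103 in venetoclax Treg, against 69585, 62363, 76639.7 and 63698 in vehicle Treg (log2 -0.26, SE 0.08, limma adjusted p = 0.0328), and Rpl11 averaged 24191 ± 1597 in venetoclax Treg and 29099 ± 3174 in vehicle Treg (log2 -0.26, SE 0.08, limma adjusted p = 0.0287). Both fell by the same amount, with groups apart in either gene. Rpl22, needed for the development of αβ T cells in mice, had 9443, 10306, 10679.6 and 10022 in venetoclax Treg, against 12461, 11003, 12794 and 11478 in vehicle Treg (log2 -0.24, SE 0.06, limma adjusted p = 0.0138). X-linked Rpl10, one of the last proteins to join the 60S subunit, averaged 31862 ± 996 in venetoclax Treg and 37096 ± 2886 in vehicle Treg (log2 -0.22, SE 0.06, limma adjusted p = 0.0314). Rpl28, a 60S protein with no bacterial counterpart, averaged 12937 ± 697 in venetoclax Treg and 15548 ± 1237 in vehicle Treg (log2 -0.26, SE 0.06, limma adjusted p = 0.0112).

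The 7 members of the 60S subunit that did not pass in Treg were Rpl13a, Rpl24, Rpl6l, Rpl4, Rpl3, Rpl32l and Rpl39. Rpl13a (log2 -0.25, SE 0.09, limma adjusted p = 0.0578) and Rpl4, which lines the exit tunnel (log2 -0.20, SE 0.07, limma adjusted p = 0.0532), did not pass, with groups apart. Rpl3, next to the peptidyl transferase centre (log2 -0.18, SE 0.07, limma adjusted p = 0.105), Rpl24, which forms a bridge to the 40S subunit (log2 -0.22, SE 0.08, limma adjusted p = 0.073), and the pseudogene Rpl6l (log2 -0.21, SE 0.07, limma adjusted p = 0.0596) had negative signs and overlapping groups. Rpl39, a very small protein of the exit tunnel wall, was at the edge of detection here, at 8.90, 14.2, 9.66 and 15.4 in venetoclax Treg, against 7.79, 12.5, 13.6 and 5.70 in vehicle Treg (log2 0.30, SE 0.36, limma adjusted p = 0.606). Rpl32l, also low, averaged 9.73 ± 4.51 in venetoclax Treg and 8.09 ± 2.07 in vehicle Treg (log2 0.19, SE 0.38, limma adjusted p = 0.77). These last 2 were the only positive signs among the 70 members in Treg. Ribosomal proteins have many processed pseudogenes in the mouse genome, and the sources used here do not give how the authors' counting treated reads that match several places, so the level of each gene is uncertain by the reads it shares.

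**Figure D2:**
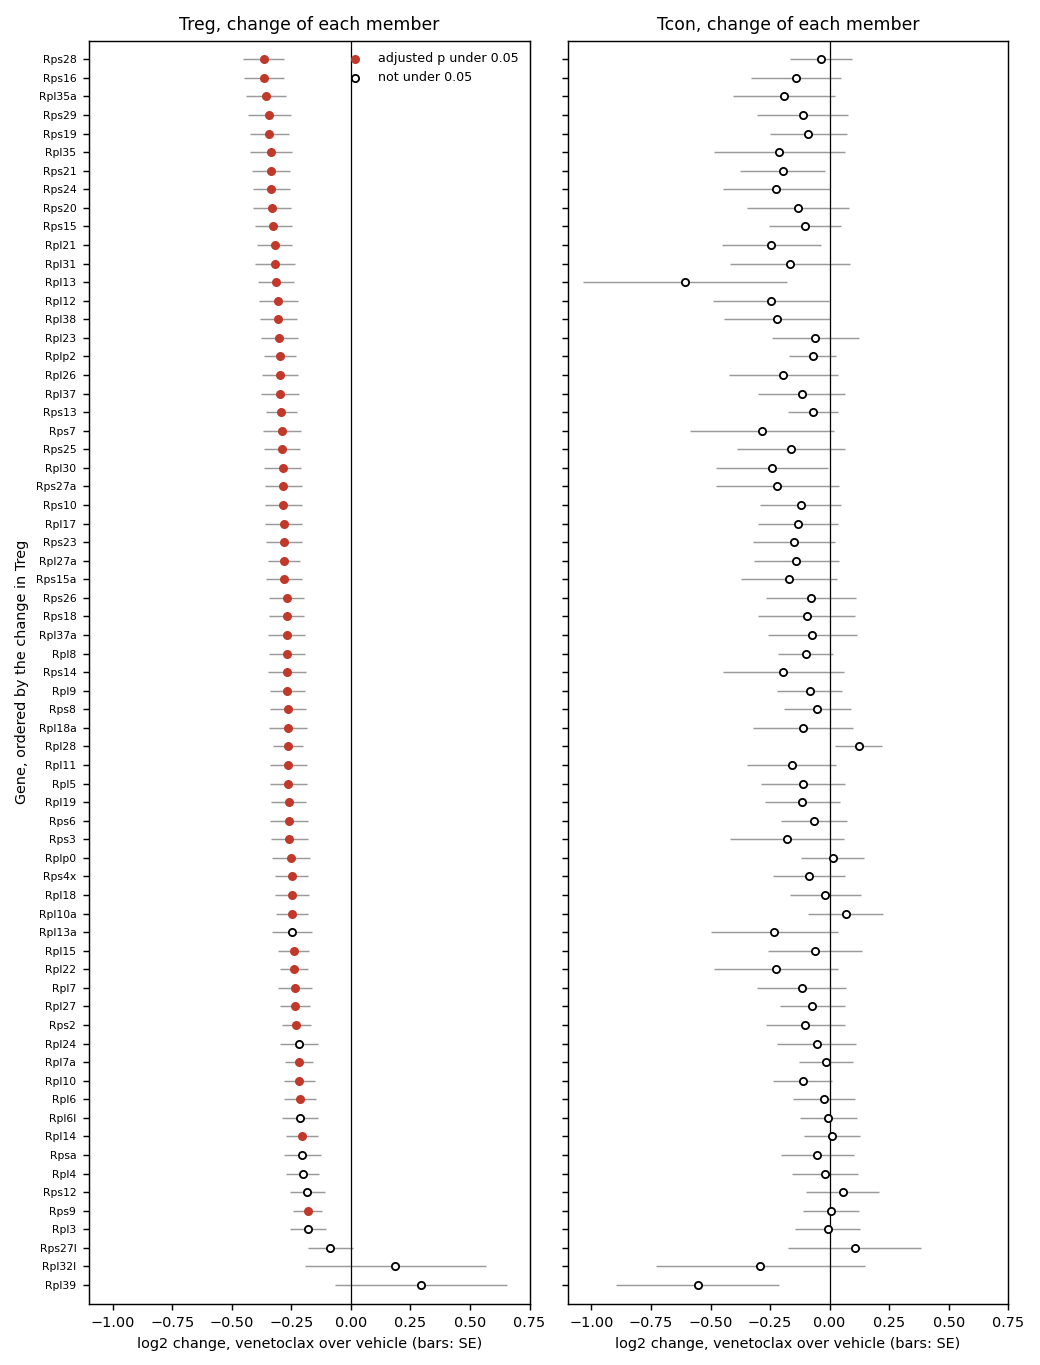
Change of 67 of the 70 members (rows, ordered by the change in Treg) with venetoclax over vehicle on the log2 scale, with bars of 1 SE from limma without the replicate block, in Treg (left) and Tcon (right). Filled points have an adjusted p under 0.05 over all genes of the table. In Treg 57 of the members shown are filled and all of these lie between -0.37 and -0.18, while in Tcon no point is filled and the bars are longer.

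The count of falls in Treg depended on single libraries. Without venetoclax replicate 1 it was 16, without venetoclax replicate 4 it was 22, without vehicle replicate 1 it was 27 and without vehicle replicate 3 it was 23, and it was 21 without replicate 3 of both arms. Over all 11067 genes the count lower, 975 with all libraries, was 583, 670, 639, 586 and 419 in these fits, in that order. The 15 members that fell in all 9 of the fits that left out a library or both replicates 3 included Rps13, Rps15, Rps16, Rps19, Rps20, Rps21, Rps24, Rps28, Rpl21, Rpl22, Rpl27a, Rpl28, Rpl35a and Rplp2. How many of all 11067 genes were lower in all 9 was not counted, and it can be at most 419. The sign was steadier than the call, with 68 or 69 of 70 members negative and medians between -0.31 and -0.21 in the fits that left out 1 library. By the authors' deposited table, 65 members were lower and none higher in Treg, where 9.36% of all genes were lower.

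The same few libraries were the extremes for most members. Of the 68 members with a mean of at least 50 counts, 51 were lowest in venetoclax Treg replicate 1 and 15 in venetoclax Treg replicate 4, and 67 were highest in vehicle Treg replicate 3. Reads of the Y-linked gene Ddx3y, which is no member, also differed between libraries, and the labels give no sex. Its normalized count was 1694.9, 5538.6, 2871.6 and 1.0 in venetoclax Treg, against 0, 5326.4, 1.0 and 0 in vehicle Treg. With its log2 level as a covariate 17 members fell, where 647 of all 11067 genes were lower. Of the members 67 of 70 had a negative sign, and their median was -0.26, close to that without the covariate. The share of mitochondrially encoded messages was 3.08% to 3.53% in venetoclax Treg and 3.49% to 4.31% in vehicle Treg. The summed count of 8 of 8 Treg markers, among them Foxp3, was 115458 to 123876 in venetoclax Treg and 102375 to 110392 in vehicle Treg, without overlap. CD4 T cell markers (6 of 7 measured) summed to 80257 to 83462 in venetoclax Treg and 76284 to 81059.9 in vehicle Treg. The part of these in the falls was not tested, beyond the covariate. Markers of other cells were low and overlapped: those of B cells (3 of 5 measured) summed to 344 to 491 in venetoclax Treg and 364 to 486 in vehicle Treg, and those of myeloid cells (5 of 8 measured) to 78.4 to 249.6 in venetoclax Treg and 89.6 to 148 in vehicle Treg. Markers of plasma cells (2 of 4 measured) summed to 2060 to 2300 in venetoclax Treg and 1842 to 2190 in vehicle Treg. Markers of CD8 T cells (2 of 2 measured) summed to 284 to 361 in venetoclax Treg and 340 to 425 in vehicle Treg. Cd8a and Cd8b1 both had a negative sign and an unadjusted limma p under 0.05, and 1 passed only with the replicate block. Erythroid and platelet markers (4 of 7 measured) ranged from 20.3 to 1343 in venetoclax Treg and from 33.1 to 554 in vehicle Treg. All 4 had a positive sign, and none passed, or 3 with the replicate block.

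**Figure D3:**
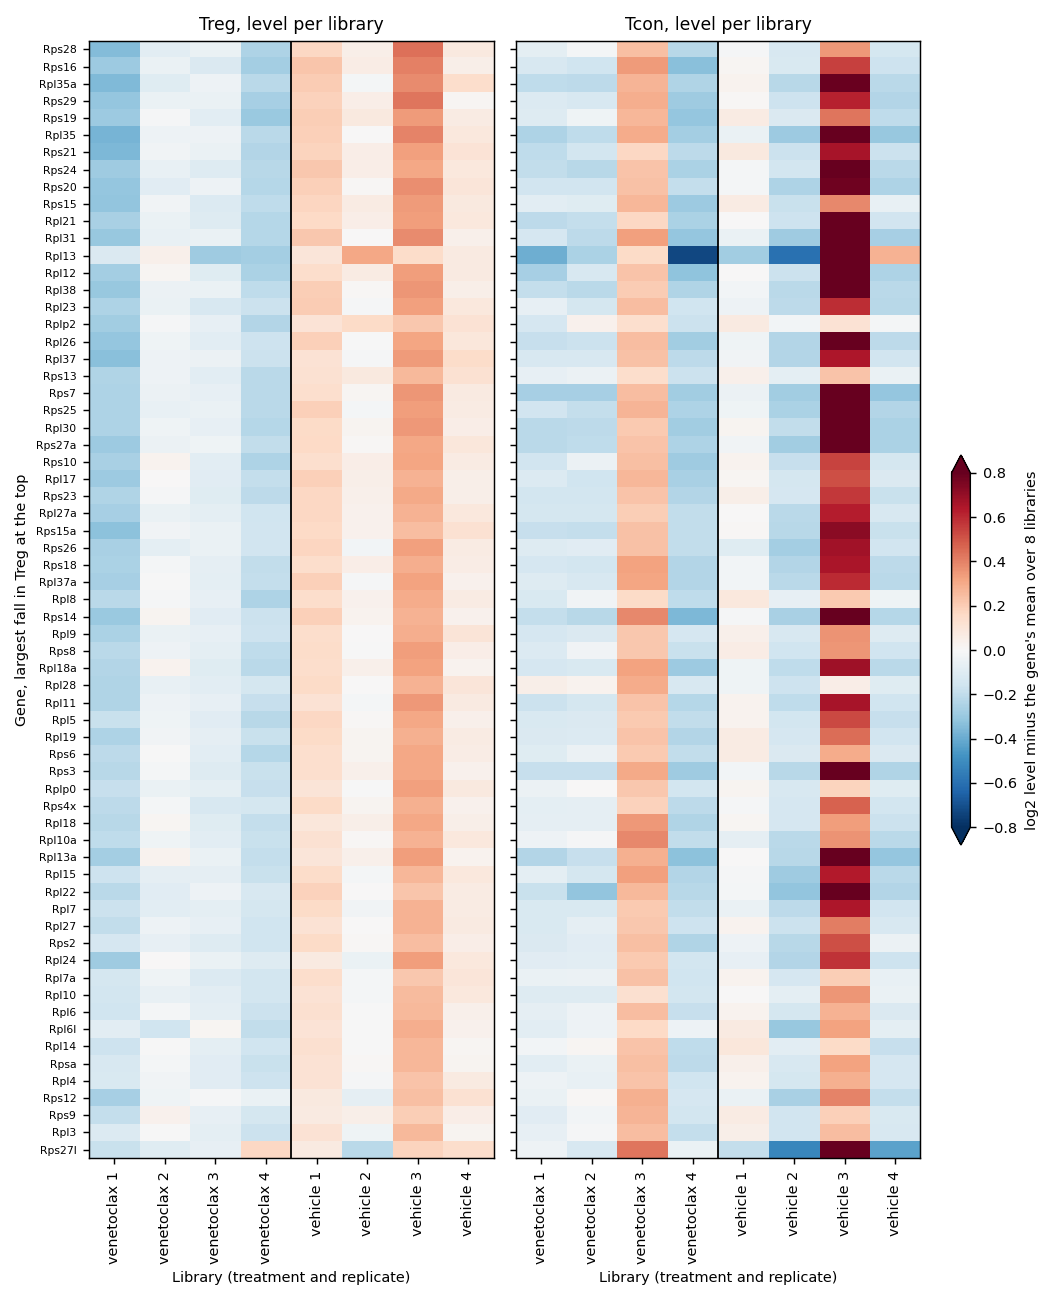
Level of 65 members (rows, largest fall in Treg at the top) in each of the 8 Treg (left) and 8 Tcon (right) libraries, as log2 minus the gene's own mean over the 8 libraries of that table, with colours capped at 0.8 in size. Of the 68 members with a mean of at least 50 counts, venetoclax replicate 1 is lowest in 51 and vehicle replicate 3 highest in 67 in Treg, and vehicle replicate 3 is highest in 59 in Tcon.

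The members shared a short coding sequence, a median of 468 bases against 1386 for all genes of the Treg table, and a short transcript, 851 bases against 2906.5. Within the members, those with the shortest coding sequence had the largest falls in Treg (Spearman correlation across 67 genes of 0.61 between the log2 change and the coding length; genes share libraries and are not independent). Across 9666 other genes it was 0.17. For transcript length it was 0.21 across the 67 members and 0.24 across 9677 other genes, and for the level of the members 0.12. Short transcripts outside the members also had lower values: those of up to 1000 bases had a median change of -0.09 in Treg (618 genes, 13.8% lower), and those over 4000 bases a median of 0.05 (3337 genes, 6.17% lower). With the trend of each library on transcript length removed, 38 members still fell, with a median of -0.16. Over all 11067 genes 1029 were lower with that correction. Whether the length of the transcripts had a part in the falls beyond this correction was not tested.

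**Figure D4:**
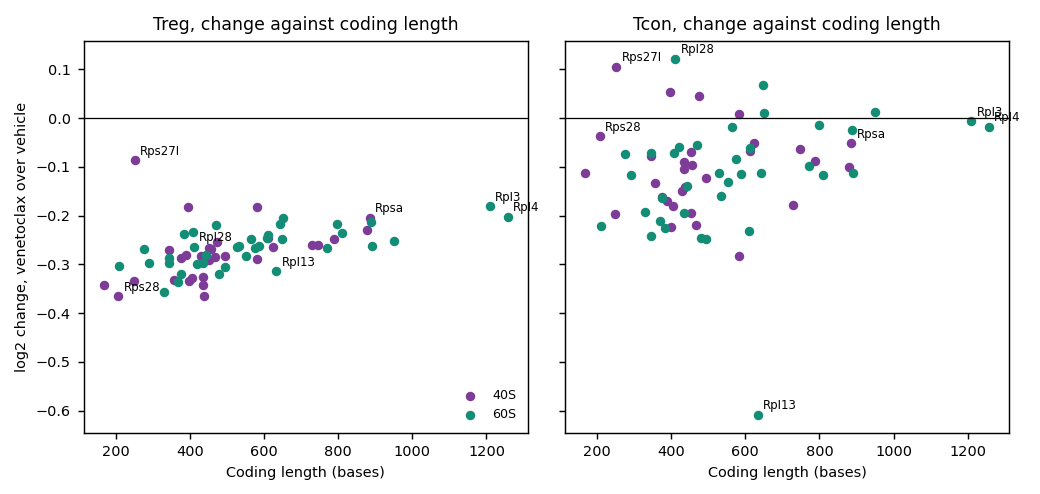
Change with venetoclax over vehicle (log2, vertical axis) against the length of the coding sequence in bases (horizontal axis) for 67 members in Treg (left) and Tcon (right), with 40S and 60S members in separate colours. In Treg the change runs from -0.37 in the short Rps28 to -0.18 and -0.20 in the long Rpl3 and Rpl4, with the short Rps27l apart at -0.09, and in Tcon Rpl13 lies apart at -0.61.

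Members with and without a long C and T run near the start were also compared in Treg, without a test. Of the 29 members with a run of at least 8 bases, such as Rpl35 and Rps6 in the windows above, 23 fell, with a median of -0.26. Of the 25 with a promoter and no such run, such as Rps28 and Rps16, 23 fell, with a median of -0.27. The run is read from annotated sequence.

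In Tcon no member passed the test in either direction, where 2.99% of all 11171 genes were lower and 3.92% higher. No member had an unadjusted p under 0.05 with limma, and edgeR and DESeq2 called none either. With the replicate number as a block, 8 had an unadjusted p under 0.05 and none passed, where 7.9% of all genes were lower and 8.92% higher. The median change was -0.11, against 0.00 over all genes, and 62 of 70 members had a negative sign. The median SE per member was 0.18 in Tcon, against 0.08 in Treg, and with the replicate block it was 0.08 in Tcon too. No member had groups apart, which held for 7.47% of all genes in the lower and 8.78% in the higher direction.

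Replicate 3 stood apart in Tcon. In vehicle Tcon it stood a median of 1.61 times over the mean of the other 3 vehicle libraries in the members, from 1.07 in Rplp2 to 3.89 in Rpl13, while genes that are no members had a median of 0.99. In venetoclax Tcon the median over members was 1.32, and in Treg replicate 3 it was 1.05 with venetoclax and 1.17 with vehicle. Without vehicle Tcon replicate 3 the median change of the members was 0.06, with 9 of 70 negative, and without replicate 3 of both arms it was -0.04, with 58 of 70 negative. The share of mitochondrially encoded messages was 6.19% in vehicle Tcon replicate 3, the highest of its group, with a lowest value of 3.64%, and 3.60% to 3.98% in venetoclax Tcon. The part of that in the excess was not tested. Treg markers (8 of 8 measured) summed to 5822 to 6862 in venetoclax Tcon and 4513 to 5127 in vehicle Tcon, without overlap, and their part in these values was not tested.

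The excess of vehicle Tcon replicate 3 was uneven among members. Rpl13 had 8603, 9482, 12573 and 6826 in venetoclax Tcon, against 9314, 7479, 39575 and 13714 in vehicle Tcon (log2 -0.61, SE 0.43, limma adjusted p = 0.452). Vehicle replicate 3 was far above all others, and vehicle replicate 4 was the next. Rps7, another protein that binds MDM2, had 47056, 47086, 67190.0 and 46664 in venetoclax Tcon, against 54846, 46659, 130071 and 45801 in vehicle Tcon (log2 -0.28, SE 0.30, limma adjusted p = 0.647), with both replicates 3 high and the other 6 libraries close together. By contrast Rplp2 had 31564, 35414, 38013 and 30728 in venetoclax Tcon, against 36366, 34055, 37491 and 34263 in vehicle Tcon (log2 -0.07, SE 0.10, limma adjusted p = 0.743), and Rplp0 had 84092, 87090.0, 100933 and 78431 in venetoclax Tcon, against 88318, 79631, 98132 and 81136 in vehicle Tcon (log2 0.01, SE 0.13, limma adjusted p = 0.971). In both of these the libraries of the groups were mixed and replicate 3 of each arm stood less far above the rest.

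Other members with a large negative value in Tcon were Rpl39 (log2 -0.55, SE 0.34, limma adjusted p = 0.381), Rpl32l (log2 -0.29, SE 0.44, limma adjusted p = 0.765), Rpl21 (log2 -0.25, SE 0.21, limma adjusted p = 0.545), Rpl12 (log2 -0.25, SE 0.24, limma adjusted p = 0.616), Rpl30 (log2 -0.24, SE 0.23, limma adjusted p = 0.605) and Rpl13a (log2 -0.23, SE 0.27, limma adjusted p = 0.681). The largest positive values were in Rpl28, Rps27l (log2 0.11, SE 0.28, limma adjusted p = 0.876), Rpl10a (log2 0.07, SE 0.16, limma adjusted p = 0.854) and Rps12 (log2 0.05, SE 0.15, limma adjusted p = 0.884). Rpl28 had 16294, 16110.5, 19426 and 14472 in venetoclax Tcon, against 15410.4, 14061, 16406 and 14805 in vehicle Tcon (log2 0.12, SE 0.10, limma adjusted p = 0.525). Its venetoclax replicate 3 was highest and the groups overlapped.

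The difference between the subsets was tested as the venetoclax effect in Treg minus that in Tcon, over all 16 libraries. No member passed limma's test, where 0.965% of 10774 genes had a more negative effect in Treg and 0.334% a more positive one. The median difference was -0.16, 67 of 70 members were negative, and 2 had an unadjusted p under 0.05. So falls in Treg without calls in Tcon are not shown to differ between the subsets by this test. It takes the Treg and Tcon libraries of a code as independent, although these were correlated. With the replicate code shared by Treg and Tcon as a block, 2 members passed, Rpl28 and Rps28, where 2.34% of all genes were lower and 1.27% higher. In that fit 12 of the 70 members had an unadjusted limma p under 0.05. Rpl28 differed by -0.39 (SE 0.12, limma adjusted p = 0.163; with the code as a block, SE 0.08, adjusted p = 0.0272). In Treg it was -0.26 and in Tcon 0.12. Rps28 differed by -0.33 (SE 0.17, limma adjusted p = 0.557; with the code as a block, SE 0.08, adjusted p = 0.0398), at -0.37 in Treg and -0.04 in Tcon. Among the next were Rplp2 at -0.23 (SE 0.12, limma adjusted p = 0.546; with the code as a block, SE 0.08, adjusted p = 0.16) and Rps13 at -0.22 (SE 0.12, limma adjusted p = 0.58; with the code as a block, SE 0.08, adjusted p = 0.194). 

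Levels of the 2 subsets were set side by side without a test, as CPM, reads of genes in both tables brought to one library total, because the tables were normalized separately. With venetoclax all 4 Treg libraries lay below all 4 Tcon libraries in 59 of 70 members, against 18.3% of all genes, and none lay above, against 30.2%. The median log2 ratio of Treg over Tcon was -0.37 for members and 0.05 for all genes. With vehicle it was -0.25 for members and 0.04 for all genes, and 12 members lay below (12% of all genes) and none above (24.5%). Without vehicle Treg replicate 3 the count below with vehicle was 31, and without vehicle Tcon replicate 3 the median with vehicle was -0.09. The share of all genes below was not counted with a library left out, where groups are apart more easily.

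Rps29 stood at 919 ± 86.3 CPM in Treg and 1603 ± 262 CPM in Tcon with venetoclax, and at 1155 ± 143 CPM in Treg and 1741 ± 433 CPM in Tcon with vehicle (SD, n = 4 each). Its Treg libraries lay below in both arms. Rplp0 was at 2454 ± 115 CPM in Treg and 3721 ± 349 CPM in Tcon with venetoclax, and at 2895 ± 258 CPM in Treg and 3658 ± 216 CPM in Tcon with vehicle. Rpl28 was at 551 ± 31.6 CPM in Treg and 704 ± 76.8 CPM in Tcon with venetoclax and at 655 ± 45.6 CPM in Treg and 639.9 ± 20.3 CPM in Tcon with vehicle, where its libraries overlapped. Rps27l was at 30.7 ± 3.57 CPM in Treg and 26.3 ± 4.62 CPM in Tcon with venetoclax and at 32.2 ± 3.52 CPM in Treg and 25.97 ± 12.9 CPM in Tcon with vehicle, and overlapped in both arms.

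Per length, in vehicle Treg, the highest levels were 6875 CPM per kilobase of coding sequence in Rps29, 6408 in Rps24, 4815 in Rpl12 at the base of the stalk, 4652 in Rps15a and 4352 in Rpl23. Among the lowest were 2.73 in Rpl39, 128 in Rps27l, 589.9 in Rpl13 and 1309.7 in Rpl22.

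**Figure D5:**
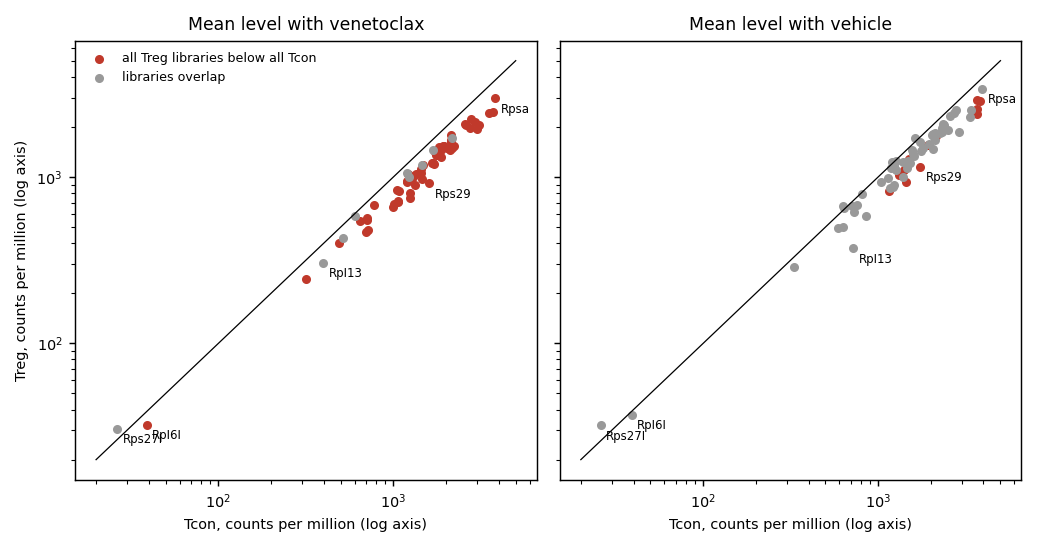
Mean level of 68 members in Treg (vertical axis) against Tcon (horizontal axis) in CPM, on log axes, with venetoclax (left) and vehicle (right), and the line of equal levels. Red points are members whose 4 Treg libraries all lie below the 4 Tcon libraries, 59 with venetoclax and 12 with vehicle.

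The rest of the translation machinery was taken from lists chosen with earlier results of these data known. Their counts stand against the shares over all genes, in Treg 8.81% lower and 10.7% higher, and in Tcon 2.99% lower and 3.92% higher, or 7.9% lower and 8.92% higher with the replicate block. Of 3 ribosomal protein genes whose symbols the rule does not take in, none passed in Treg: Fau, which fuses a ubiquitin-like protein with a 40S protein, averaged 22685 ± 2256 in venetoclax Treg and 26534 ± 2327 in vehicle Treg (log2 -0.23, limma adjusted p = 0.0567), Rack1, the signalling scaffold on the 40S subunit, averaged 21645 ± 1265 in venetoclax Treg and 24764 ± 2018 in vehicle Treg (log2 -0.19, limma adjusted p = 0.0585), and Rpl7l1, a paralog of Rpl7, averaged 2314 ± 101 in venetoclax Treg and 2139 ± 94.1 in vehicle Treg (log2 0.11, limma adjusted p = 0.138). In Tcon they also did not pass, other than Rpl7l1, which was higher with the replicate block (log2 0.22, limma adjusted p = 0.195, and 0.0407 with the block).

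Of 18 other messages with a TOP tract, 5 fell and none rose in Treg, all 18 signs were negative and the median was -0.14. Tpt1, the translationally controlled tumour protein, averaged 67993 ± 2764 in venetoclax Treg and 81013 ± 6158 in vehicle Treg (log2 -0.25, limma adjusted p = 0.03), and Eef1b2, a subunit of elongation factor 1, averaged 19690.3 ± 1127 in venetoclax Treg and 23515 ± 1876 in vehicle Treg (log2 -0.25, limma adjusted p = 0.0169). Npm1, the nucleolar chaperone, averaged 21024 ± 298 in venetoclax Treg and 24549 ± 1916 in vehicle Treg (log2 -0.22, limma adjusted p = 0.0224), and Naca, which binds new chains at the tunnel exit, fell as well (log2 -0.20, limma adjusted p = 0.045). In Tcon none of the 18 passed with or without the block (median 0.00). Of 10 elongation and termination factors 1 fell in Treg, Eef1b2 again. Of 35 initiation factors 2 fell in Treg, Eif3k (log2 -0.20, limma adjusted p = 0.0224) and Eif2b2 (log2 -0.20, limma adjusted p = 0.0276), and 1 rose, Eif4e, the cap-binding protein (log2 0.19, limma adjusted p = 0.0367). In Tcon none of the initiation factors passed, and 4 rose with the replicate block, Eif4e among them (log2 0.27, limma adjusted p = 0.206, and 0.0334 with the block).

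Of 49 ribosome biogenesis factors 6 fell (12.2%) and none rose in Treg, with a median of -0.05. Riok2, a kinase of late 40S maturation, averaged 849 ± 44.8 in venetoclax Treg and 1029.7 ± 25.2 in vehicle Treg (log2 -0.28, limma adjusted p = 0.00511), and Ltv1, which helps to assemble the 40S head, averaged 815 ± 39.4 in venetoclax Treg and 986 ± 76.6 in vehicle Treg (log2 -0.27, limma adjusted p = 0.0126). Nmd3, the export adaptor of the 60S subunit, averaged 1188 ± 40.01 in venetoclax Treg and 1375 ± 33.03 in vehicle Treg (log2 -0.21, limma adjusted p = 0.0112). In Tcon, 3 of the 49 rose and none fell, with a median of 0.12: Bop1, of 60S assembly, averaged 2356 ± 215 in venetoclax Tcon and 1775 ± 54.6 in vehicle Tcon (log2 0.40, limma adjusted p = 0.0105), Bysl (log2 0.42, limma adjusted p = 0.0284) and Heatr1 (log2 0.29, limma adjusted p = 0.029) act in 40S assembly. With the replicate block 9 rose and 2 fell in Tcon, the falls being Nmd3 (log2 -0.26, limma adjusted p = 0.126, and 0.0223 with the block) and Riok2 (log2 -0.24, limma adjusted p = 0.161, and 0.0396 with the block). Of 19 genes of RNA polymerase I transcription 2 fell and none rose in Treg, Taf1d (log2 -0.27, limma adjusted p = 0.012) and Polr2k (log2 -0.22, limma adjusted p = 0.0241). None passed in Tcon, and with the block 1 rose and 1 fell. Among 77 mitochondrial ribosomal protein genes, which belong to a separate ribosome, 7 fell (9.09%, near the share of all genes) and 3 rose in Treg, with a median of -0.10. In Tcon 2 rose and none fell, and with the block 2 rose and 1 fell.

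Of 37 genes of the mTORC1 pathway and regulators of TOP messages, 5 rose (13.5%) and 3 fell (8.11%) in Treg, shares near those of all genes. In Tcon 2 rose and 2 fell, and with the block 5 rose and 3 fell. Ddit4, an inhibitor of mTORC1, averaged 10310.1 ± 1307 in venetoclax Treg and 4716 ± 1244 in vehicle Treg (log2 1.16, limma adjusted p = 0.000423), and was also higher in Tcon (log2 1.57, limma adjusted p = 0.00214). Rragd, a Rag GTPase that brings mTORC1 to lysosomes, averaged 1464 ± 115 in venetoclax Treg and 1029 ± 48.1 in vehicle Treg (log2 0.51, limma adjusted p = 0.000305), and the sestrins Sesn3 (log2 0.37, limma adjusted p = 0.00198) and Sesn1 (log2 0.23, limma adjusted p = 0.011), which restrain mTORC1, rose too. Lamtor3, a subunit of the Ragulator complex that anchors mTORC1 at lysosomes, was the fifth that rose (log2 0.28, limma adjusted p = 0.0194). Of the falls, Rhebl1, a relative of the mTORC1 activator Rheb, averaged 131 ± 15.05 in venetoclax Treg and 208 ± 10.7 in vehicle Treg (log2 -0.67, limma adjusted p = 0.0014). Tbc1d7, a subunit of the TSC complex that restrains mTORC1, averaged 70.3 ± 14.6 in venetoclax Treg and 110.0 ± 22.8 in vehicle Treg (log2 -0.64, limma adjusted p = 0.0284), and Lamtor1, another Ragulator subunit, fell too (log2 -0.24, limma adjusted p = 0.047). Larp1, the protein that binds TOP tracts, did not pass in Treg (log2 0.08, limma adjusted p = 0.442), nor did Mtor (log2 0.00, limma adjusted p = 0.979), and in Tcon Larp1 was higher with the block alone (log2 0.20, limma adjusted p = 0.522, and 0.03 with the block). Of 8 measured genes of MYC and its partners, 2 rose in Treg, Mxd4, a repressor that pairs with MAX (log2 0.40, limma adjusted p = 0.000384), and Max (log2 0.16, limma adjusted p = 0.0401), while Myc itself did not pass (log2 0.01, limma adjusted p = 0.938).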

How the data were processed

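Total RNA of CD4+ FOXP3+ Treg and CD4+ FOXP3- Tcon, 4 libraries per group, was extracted with an RNeasy kit and read on an Illumina NovaSeq, as the labels' protocols state. Per the submitters' processing notes, HISAT2, SAMtools and the mm10 build were used. The sources used here give neither versions nor the counter, annotation and strand setting. The library columns hold the authors' normalized count per gene, per the file headers and values a signal equal to reads divided by 1 size factor per library, in a separate table for Treg and Tcon. All values were whole multiples of 1 step within 0.01, so reads were recovered. They ran from 21335006 to 25027038 per Treg library and from 22982210 to 24960570 per Tcon library. The authors' deposited log2 fold change, its error and the deposited p-value columns were used only as counts of members called in the authors' table. Repeated lines (43 of 11110 in Treg, 40 of 11211 in Tcon) were dropped, which left 11067 and 11171 genes.

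Each table was fitted on its own with limma 3.58.1, venetoclax against vehicle, on log2(normalized count + 1) (R 4.3.3, empirical Bayes with a mean-dependent prior), with Benjamini-Hochberg adjustment over all genes and a threshold of 0.05. For the difference between subsets the model held the interaction over 16 libraries and 10774 genes. Alternatives were edgeR 4.0.16 and DESeq2 1.42.0 on recovered reads, other scalings, filters and covariates, a replicate block, and leaving out libraries. The code was tested on simulated data. Of 66 genes given a log2 change of 0.3 in size, 33 were recovered in Treg, 9 in Tcon and 4 for the difference. With a change of 0.6 in size it was 65, 59 and 46. So changes as small as those in Treg would often be missed in Tcon and in the difference. Levels were CPM of recovered reads. Coding and transcript lengths came from the GENCODE annotation of GRCm38. Coordinates (1-based) and promoters came from RefSeq on GRCm38.p6, the assembly of mm10. Intervals are not given, and the SE from limma, where printed, measures the spread between libraries.

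Replicate numbers were checked by correlating how libraries of a number depart from the mean of their group. In Tcon the venetoclax and vehicle libraries gave 0.119, 0.555, 0.614 and 0.272, all over 0.1, and were taken as paired on this evidence only. The main fit in Tcon did not use that pairing, which entered only the fits with the replicate block. In Treg the venetoclax and vehicle libraries gave -0.0395, 0.414, 0.256 and 0.385 and were not taken as paired. In Tcon as in Treg, venetoclax replicates 2, 3 and 4 matched the vehicle library of their own number best, and replicate 1 did not. Treg and Tcon libraries of the same code gave 0.2 to 0.551, each library matching its own code best. Ddx3y had 1467.8, 6674.1, 3050.4 and 1.0 in venetoclax Tcon replicates 1 to 4, against 0, 5663.6, 0 and 0 in vehicle Tcon. So the Tcon libraries numbered 1 and 3 differed in it between the arms.

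Members named with values were 25 symbols fixed for their roles or paralogs (16 measured), the largest changes per subset, those not called in Treg, the smallest p for the difference and the extremes of level per length, 40 in all. A few members are counted but not reported here by name. The members, lists and rules were chosen with earlier results of these data known.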

Additional observations from a re-analysis of the deposited data

Results flagged for a closer look

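In 29 of 164 groups of 4 libraries tested, 1 library lay farther from the others than Dixon's 95% critical value allows, where chance would flag about 1 in 20 groups that are independent. These groups are not: the members share libraries, and several were named for their large values in Tcon, so the 29 are not to be read against that share. Of these, 14 were in venetoclax Tcon, 14 in vehicle Tcon and 1 in venetoclax Treg. In venetoclax Tcon the distant value (a normalized count) was 47757 in Rpl10, 35640 in Rpl11, 49702 in Rpl21, 16599 in Rpl24, 35174 in Rpl30, 21569 in Rpl35, 32032 in Rpl35a, 1024 in Rpl6l, 52786 in Rps15a, 28174 in Rps21, 91409 in Rps24, 49681 in Rps27a, 796 in Rps27l and 67190 in Rps7. In vehicle Tcon it was 55928 in Rpl10, 143385 in Rpl12, 138206 in Rpl13a, 77694 in Rpl21, 26264 in Rpl22, 21463 in Rpl24, 57190 in Rpl30, 2.999 in Rpl32l, 36835 in Rpl35, 98014 in Rps14, 137853 in Rps24, 84642 in Rps27a, 1130 in Rps27l and 130071 in Rps7. In venetoclax Treg it was 16.43 in Rpl32l. In Tcon each was the highest value, in replicate 3, other than that of Rpl32l in vehicle Tcon, which was the lowest, in replicate 2.

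The venetoclax effect differed between Treg and Tcon in 2 of 70 members when the replicate code was a block: Rpl28, by -0.39 (log2), and Rps28, by -0.33. That count is near the share of all genes in the same fit, 2.34% lower and 1.27% higher. Neither passed without the block.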

How the results depend on the processing

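The count of members that fell in Treg, 60 with all libraries, ran from 16 (without venetoclax replicate 1) to 64 (without vehicle replicate 2) when 1 library was left out, and was 21 without replicate 3 of both arms, 17 with the Ddx3y level as a covariate, 38 with the transcript length correction and 47 with that correction and the replicate block. It was 63 with the replicate block alone, whose numbers do not pair the Treg libraries by the check, although replicates 2, 3 and 4 correlated best with their own number. It was 65 with upper quartile scaling, 63 with edgeR and 67 with DESeq2, and none of the 70 rose under any of these. Over all 11067 genes the count lower ran from 583 to 1007 when 1 library was left out, against 975 with all libraries. It was 419 without replicate 3 of both arms, 647 with the Ddx3y covariate and 1029 with the length correction. With upper quartile scaling it was 1348, with edgeR 1067 and with DESeq2 1143. The median of the members in Treg stayed between -0.31 and -0.16. In Tcon no member passed under any alternative, and the median ran from -0.21 to 0.06 when 1 library was left out. For the difference the count of members lower in Treg was 2 with the replicate block, 1 with the length correction, 2 with both and 0 otherwise. The count of members with Treg levels below Tcon with vehicle ran from 12 to 31, and of those above from 0 to 2, when 1 library was left out. With venetoclax the count above ran from 0 to 1. Shares of all genes were not counted for these levels with a library left out. With the replicate block in Tcon, an alternative for the lists chosen after seeing the data, the other lists had 1 gene higher outside the rule, 9 higher and 2 lower in biogenesis, 1 and 1 in RNA polymerase I, 4 higher in initiation, 5 higher and 3 lower in mTORC1, 5 higher and 1 lower in MYC and its partners and 2 higher and 1 lower in the mitochondrial ribosome. Without the 5 members with the highest counts the mean share was 6.85% in venetoclax Treg, 8.20% in vehicle Treg and 9.08% in venetoclax Tcon. Of the values of single named members under the alternatives, 2243 kept their side of the threshold, 116 lost a call, 35 gained one and no value with a call changed sign. Of the values without a call, 123 changed sign, 61 of them in Tcon, where 26 did so without vehicle replicate 3, 58 in the difference and 4 in Treg. Cause was not tested where a call was lost. Rpl39 and Rpl32l were the members with the lowest counts, and whether depth or the counting of shared reads sets their level was not tested.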

Other observations

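In Tcon, where no cytosolic ribosomal protein gene passed, a few genes of the MYC and mTORC1 lists did. Mxd3, a repressor that pairs with MAX, averaged 36.9 ± 6.52 in venetoclax Tcon and 7.97 ± 3.77 in vehicle Tcon (log2 2.18, limma adjusted p = 0.00548), and its relative Mxd4 averaged 1212 ± 119 in venetoclax Tcon and 839 ± 73.7 in vehicle Tcon (log2 0.53, limma adjusted p = 0.00785), while Myc was higher with the replicate block alone (log2 0.29, limma adjusted p = 0.17, and 0.0214 with the block). With that block 5 of the 8 rose and 1 fell, Mxi1 (log2 -0.28, limma adjusted p = 0.0989, and 0.0458 with the block). Of the restraints on mTORC1, Sesn2 averaged 147 ± 21.00 in venetoclax Tcon and 96.01 ± 13.96 in vehicle Tcon (log2 0.61, limma adjusted p = 0.0386), and Nprl3, a subunit of GATOR1, averaged 569 ± 12.2 in venetoclax Tcon and 682 ± 29.5 in vehicle Tcon (log2 -0.26, limma adjusted p = 0.0479). Rhebl1 averaged 169.9 ± 24.6 in venetoclax Tcon and 248 ± 25.04 in vehicle Tcon (log2 -0.55, limma adjusted p = 0.0308).

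Among mitochondrial ribosomal protein genes, Mrps25 and Mrps6 rose in both subsets while most of the list did not pass. Mrps25 averaged 471 ± 5.98 in venetoclax Treg and 389.9 ± 23.2 in vehicle Treg (log2 0.28, limma adjusted p = 0.0162), and 528 ± 7.27 in venetoclax Tcon and 336 ± 20.2 in vehicle Tcon (log2 0.65, limma adjusted p = 0.00111). Mrps6 averaged 761 ± 32.2 in venetoclax Treg and 581 ± 89.5 in vehicle Treg (log2 0.40, limma adjusted p = 0.0112), and 473 ± 32.4 in venetoclax Tcon and 356 ± 45.6 in vehicle Tcon (log2 0.42, limma adjusted p = 0.0429). Of the falls in Treg, Mrpl30 averaged 1101 ± 62.7 in venetoclax Treg and 1382 ± 114 in vehicle Treg (log2 -0.33, limma adjusted p = 0.00525) and Mrpl57 averaged 316 ± 12.3 in venetoclax Treg and 409 ± 46.1 in vehicle Treg (log2 -0.37, limma adjusted p = 0.012). Neither passed in Tcon, with or without the block.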
